A study of Mus musculus with 15 samples.

Results

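The genes described here encode 42 ribosome biogenesis factors, the proteins that transcribe ribosomal RNA, modify it and assemble it into subunits. They were chosen by gene symbol from a fixed list, and all 42 were found among the 22524 gene rows of each table. Ribosomes are built mostly in the nucleolus, where RNA polymerase I makes a long precursor RNA that is cut, modified and folded together with ribosomal proteins. Small nucleolar ribonucleoproteins (snoRNPs) place the modifications, and large sets of transient factors carry the small and the large subunit to export and final maturation. In neurons, which do not divide, the same machinery supplies the ribosomes of the cell body, dendrites and synapses.

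RNA was sequenced from the cortex of female C57BL/6 mice aged 18 months, per the series design. The 7 mutant mice were heterozygous for Rps9 D95N (genotype Rps9 D95N / Rps9 WT), an amino acid change in a 40S ribosomal protein, and the 8 controls were littermates with 2 wild-type alleles (Rps9 WT / Rps9 WT). The comparison asks how the cortical transcriptome of the mutant mice differs from that of their littermates. Each library came from a mouse with its own animal number, by which libraries are named here (D95N 42, WT 24). The deposited values count RNA of both Rps9 alleles together. Rps9 itself was at 63.1 ± 6.13 CPM (counts scaled to library size; SD, n = 7) in the mutants and 65.3 ± 3.02 CPM (SD, n = 8) in the littermates, a log2 fold change of -0.05 ± 0.05 (SE; edgeR quasi-likelihood test, Benjamini-Hochberg adjusted p = 0.505), and this total does not show which allele was carried.

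The tissue field of every sample names skeletal muscle, against the series design. Marker sums in this paragraph are scaled to library totals alone, unlike the CPM of single genes. The 5 neuronal markers summed to 5795 to 6330 CPM in D95N and 6076 to 6670 CPM in WT, while the 8 skeletal muscle markers summed to 7.39 to 11.3 CPM and 7.93 to 31.3 CPM, so the libraries are described here as brain. Libraries held 23349381 to 34052037 counts in D95N and 28007441 to 34587082 in WT (two-sided exact permutation test over 6435 regroupings, p = 0.140). On the first principal component of all tested genes (42.2% of the variance), the 8 WT libraries spanned 9.26 to 16.4. Of the mutant libraries 5 spanned -28.2 to -19.0, while D95N 41 lay at -4.04 and D95N 42, at 11.6, fell inside the WT range. All 5 blood-cell markers were lower in D95N (summed 36.0 to 151 CPM against 74.1 to 292 CPM), as were 4 of 8 meningeal fibroblast markers (73.4 to 155 CPM against 140 to 192 CPM), 3 of 5 astrocyte markers (3756 to 4505 CPM against 4435 to 4657 CPM) and 3 of 7 striatal markers (662 to 1368 CPM against 782 to 1208 CPM), with no marker of these lists at 0 in all libraries. The striatal list did not move in 1 direction: Ppp1r1b (0.39 ± 0.17) and Penk (0.20 ± 0.18) had positive log2 fold changes (SE; edgeR adjusted p = 0.0952 and 0.415). Those of Drd1 and Rgs9 were negative, and none of these was called. In bulk tissue, fewer cells of a type and less RNA per cell cannot be told apart.

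Of the 42 factors, 6 were higher in D95N (Rrp12, Bms1, Bop1, Nop14, Sbds and Gnl3) and 3 were lower (Npm1, Nop58 and Pes1) by edgeR's quasi-likelihood test at a Benjamini-Hochberg adjusted p of 0.05. These calls amount to 21.4% of the factors, beside 26.8% of all 14989 genes tested. The shares were 14.3% against 15.2% for higher calls and 7.14% against 11.6% for lower calls, so the list was not called more often than genes in general. The changes were small: the log2 fold changes of the 42 factors ran from -0.16 to 0.25, with a median of 0.01 beside -0.01 over all genes. Their median absolute log2 fold change was 0.07 beside 0.12 over all genes, and their median standard error was 0.05 beside 0.06. Together they took 0.191% ± 0.00397 of the counts in D95N (SD, n = 7) and 0.191% ± 0.00334 in WT (SD, n = 8).

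Under total-count scaling in place of TMM the split was 4 higher and 5 lower, and under upper-quartile scaling 4 and 4. Of all calls, 56.6% were higher with TMM, 41.6% under total-count scaling and 45.0% under upper-quartile scaling. Rrp12, Bms1, Nop14 and Bop1 were called higher and Npm1, Nop58 and Pes1 lower under each of these 3 scalings, while Sbds (adjusted p = 0.105 and 0.0834) and Gnl3 (adjusted p = 0.118 and 0.0627) lost their calls under the other two. Without D95N 42, the library inside the WT range, 8 factors were higher and 4 lower, beside 33.1% of all genes called. With scores for the blood-cell and meningeal markers as covariates none of the 42 was called and only 6 of all genes were, and the median standard error of the factors was 0.09. The blood-cell score averaged -0.56 in D95N and 0.49 in WT, and the meningeal score -0.28 and 0.25. The variance inflation of the genotype term by both scores was 3.23, so this fit separated the scores from genotype only in part. In that fit the log2 fold changes were 0.20 ± 0.08 for Rrp12, 0.13 ± 0.09 for Nop14, 0.10 ± 0.07 for Gnl3, 0.06 ± 0.08 for Bms1 and 0.04 ± 0.12 for Bop1 (SE). Those of the factors called lower were -0.11 ± 0.08 for Npm1, -0.10 ± 0.07 for Pes1 and -0.08 ± 0.08 for Nop58 (SE). With scores for oligodendrocyte, choroid plexus and striatal markers 5 were higher and 1 lower, and the part of the astrocyte markers was not tested. After counts were thinned to the smallest library total, 4 were higher and 3 lower. Without any 1 of D95N 21 or WT 8, 11 or 16, only 1 factor was lower.

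**Figure D1:**
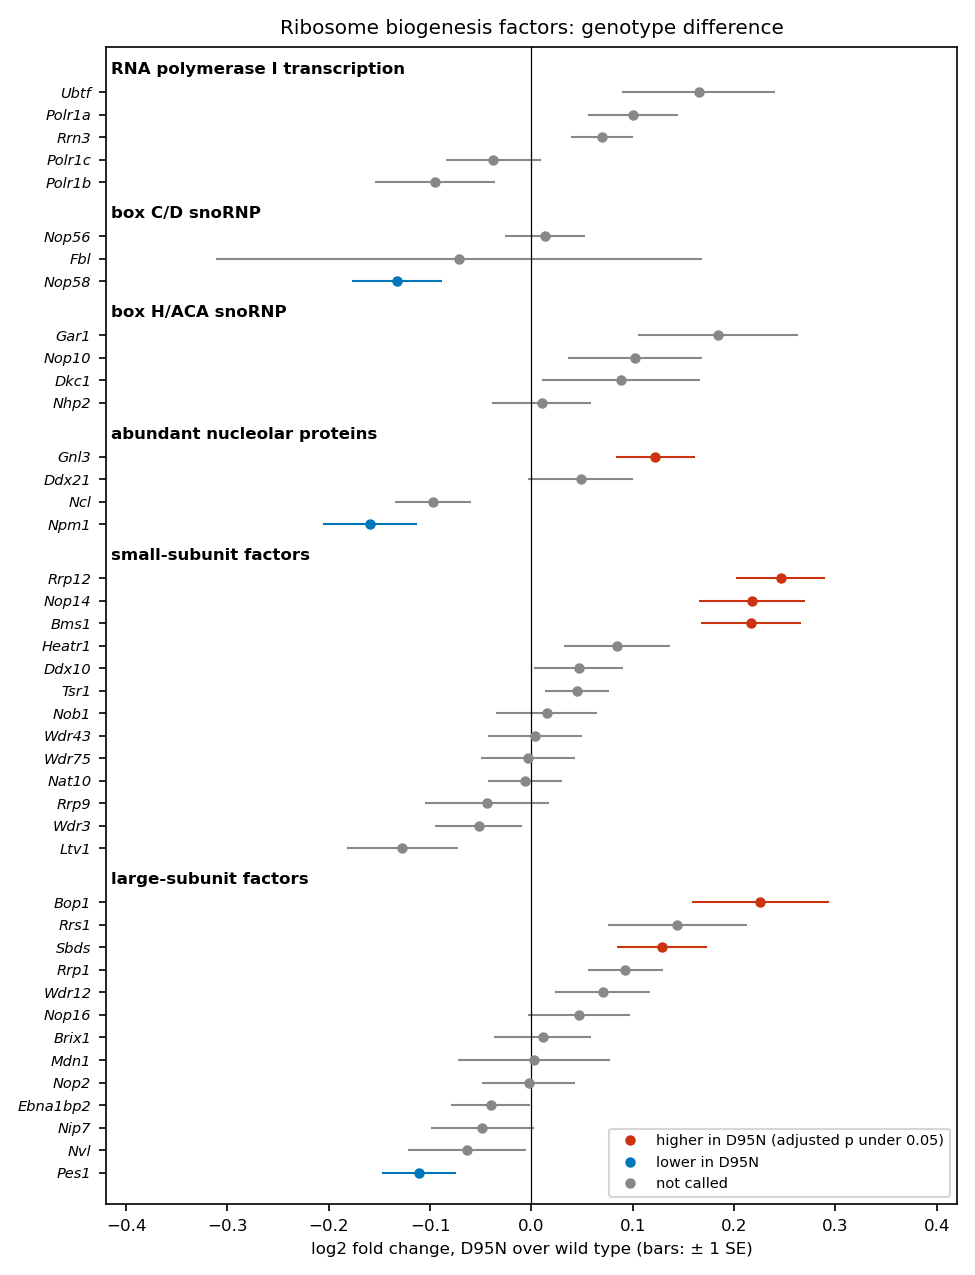
Log2 fold change of D95N over WT for each of the 42 factors, grouped by role, with points at the edgeR estimate and bars of 1 standard error; colour marks factors past the adjusted p of 0.05. Estimates run from -0.16 (Npm1) to 0.25 (Rrp12), and called factors lie on both sides of 0.

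Transcription of ribosomal RNA came first in order of action, and none of the 5 of the 42 factors with this role passed the test. In the wider list described below, Twistnb and Taf1a, of the same step, were lower (edgeR adjusted p = 0.00334 and 0.0156). Taf1a was chosen after its values were seen. Polr1d, Polr1e, Cd3eap, Znrd1, Taf1b, Taf1c and Taf1d of that list were not called. Ubtf, the architectural protein that binds ribosomal DNA and marks active repeats, had a level of 104, 139 and 152 CPM (lowest, median and highest) in D95N and 111, 118 and 127 CPM in WT. Its D95N libraries lay on both sides of the controls: 5 were above all WT libraries, while D95N 4 (104 CPM) and D95N 42 (107 CPM) were below them. The Ubtf log2 difference was 0.17 ± 0.08 (SE; edgeR quasi-likelihood, adjusted p = 0.112), and among the alternatives it passed only without D95N 4 (adjusted p = 0.0232) or without D95N 42 (adjusted p = 0.0216). Rrn3, the initiation factor that joins the polymerase to its promoter complex, was at 75.2 ± 2.57 CPM (SD, n = 7) against 71.6 ± 2.34 CPM (SD, n = 8), with 5 D95N libraries above all WT libraries (edgeR adjusted p = 0.0996, and 0.0186 after the GC and length correction). Rrn3 passed under no other alternative. Polr1a, the largest subunit of the enzyme, was at 37.4 ± 2.96 against 34.9 ± 0.801 CPM (edgeR adjusted p = 0.101, and 0.0349 without D95N 44, the only alternative under which it passed), whereas its partner Polr1b was at 15.8 ± 1.54 against 16.8 ± 0.997 CPM (adjusted p = 0.244). Polr1c, which RNA polymerase III shares, had a log2 fold change of -0.04 ± 0.05 (SE). The log2 ratio of Polr1a to Polr1b within a library, which no scaling factor enters, was 1.25 ± 0.19 in D95N and 1.05 ± 0.08 in WT (SD), and 4 of 7 D95N libraries were above all WT libraries.

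Box C/D snoRNPs place 2'-O-methyl groups on ribosomal RNA. Their core is the methyltransferase Fbl with the scaffold proteins Nop56 and Nop58, held on a guide RNA by its C and D boxes. Some snoRNAs, of both classes, are themselves encoded within biogenesis genes: 7 of the 42 factors (16.7%) hold 21 annotated snoRNAs, beside 261 of 14934 tested genes with a position (1.75%). Of the 21, 11 lie in introns and 10 overlap an annotated exon of a transcript. None of the 21 has a row in the tables, so the snoRNAs were not measured here. A pair of guides from introns of Nop58 is shown to make this arrangement visible, from the GENCODE M21 annotation on GRCm38, 5' to 3', with the C box (TGATGA) and the D box (the CTGA nearest the 3' end) in capitals where these exact letters occur.
Snord11, chr1:59704790-59704873, plus strand: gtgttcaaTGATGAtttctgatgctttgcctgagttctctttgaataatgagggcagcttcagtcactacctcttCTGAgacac
Snord70, chr1:59691934-59692020, plus strand: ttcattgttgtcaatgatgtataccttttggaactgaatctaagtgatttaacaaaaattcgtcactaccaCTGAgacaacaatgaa

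Nop58 (chromosome 1, 59684971 to 59719044, plus strand) was lower in D95N. Its lowest, median and highest levels were 45.3, 49.0 and 52.6 CPM in D95N and 47.4, 53.5 and 59.7 CPM in WT. The groups overlapped: D95N 28 alone lay below all WT libraries, and WT 24 was the low control at 47.4 CPM. The log2 fold change was -0.13 ± 0.04 (SE; edgeR quasi-likelihood, adjusted p = 0.0338), a ratio of 0.912. This call was lost without any 1 of D95N 21, 28, 41 or 50 or WT 8, 11, 16 or 43 (adjusted p from 0.0522 to 0.0680), without both D95N 28 and 50, the shallowest libraries (0.112), and with a correction for GC content and length (0.139). The oligodendrocyte, choroid plexus and striatal scores also removed it (edgeR adjusted p = 0.0548). Nop56 was at 35.5 ± 1.71 CPM (SD, n = 7) and 35.1 ± 1.63 CPM (SD, n = 8), so the log2 ratio of Nop58 to Nop56 was 0.47 ± 0.13 in D95N and 0.61 ± 0.10 in WT (SD). Fbl was counted at only 15 to 41 reads a library, 0.890 ± 0.425 CPM in D95N (SD, n = 7) and 0.918 ± 0.207 CPM in WT (SD, n = 8), and a difference was not detectable at these counts. Of its 50-base transcript windows, 70.4% also occur in other annotated genes, and for Nop56 37.6% do, so how reads that match several places were handled bears on both levels. Fbll1, a paralogue of Fbl, was at 26.7 ± 3.64 CPM in D95N (SD, n = 7) and 27.0 ± 1.205 CPM in WT (SD, n = 8).

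Box H/ACA snoRNPs convert uridine to pseudouridine and also form part of telomerase. All 4 of their proteins had positive log2 fold changes under TMM scaling, with a median of 0.10, but none passed the test. Positive values were found for 61.9% of the 42 factors and 48.1% of all tested genes. Gar1 had 10.1, 11.1 and 14.5 CPM in D95N and 8.77, 10.3 and 11.5 CPM in WT (lowest, median and highest). Its highest libraries were D95N 28 and D95N 50, the only D95N libraries above all WT libraries and the shallowest of the 15. Gar1 gave a log2 difference of 0.18 ± 0.08 (SE) with an edgeR adjusted p of 0.0925. Dkc1, the pseudouridine synthase, was at 32.6 ± 5.44 against 30.7 ± 1.32 CPM (SD; edgeR adjusted p = 0.421), with D95N 21 at 42.4 CPM and D95N 4 at 37.4 CPM while the lowest D95N library had 28.2 CPM. The structural proteins Nop10 (log2 fold change 0.10 ± 0.07, SE) and Nhp2 (0.01 ± 0.05, SE) did not pass either.

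Of the 4 factors grouped as abundant nucleolar proteins (Ncl, Npm1, Gnl3 and Ddx21), Npm1 was lower and Gnl3 higher in D95N. The group name does not rank RNA levels here: Gnl3 and Ddx21 lay below the median level per length of all factors in WT. Npm1, the chaperone nucleophosmin that gives the nucleolus its outer granular layer (chromosome 11, 33152287 to 33163206, minus strand), had 48.8, 52.0 and 58.9 CPM in D95N and 54.3, 58.6 and 63.6 CPM in WT. Only D95N 41 (55.7 CPM) and D95N 42 (58.9 CPM) reached the WT range. The log2 fold change was -0.16 ± 0.05 (SE; edgeR quasi-likelihood, adjusted p = 0.0176), a ratio of 0.895, and the call was lost without the 2 shallowest libraries (0.0728) and with the GC and length correction (0.0670). For Npm1, 40.9% of the 50-base windows also occur in other annotated genes. Gnl3, the nucleolar GTPase nucleostemin, had 21.5, 22.9 and 24.7 CPM in D95N and 19.9, 21.1 and 22.6 CPM in WT, with 5 D95N libraries above all WT libraries. The Gnl3 log2 difference was 0.12 ± 0.04 (SE; edgeR quasi-likelihood, adjusted p = 0.0283), lost without WT 11, 19 or 43 (0.0512 to 0.0567) and without the 2 shallowest libraries (0.0779). Gnl3 also lost its call with the oligodendrocyte, choroid plexus and striatal scores (edgeR adjusted p = 0.209) and with thinned counts (0.0506).

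Ncl, nucleolin, was second in level per length of all annotated exons among the 42 factors in WT. It had 256, 272 and 287 CPM in D95N and 265, 290 and 311 CPM in WT, with 3 D95N libraries below all WT libraries and WT 24 the lowest control. Its log2 fold change was -0.10 ± 0.04 (SE; edgeR quasi-likelihood, adjusted p = 0.0619), which passed without D95N 42 (0.0383), without WT 24 (0.0276), under total-count (0.0165) or upper-quartile (0.0273) scaling, and with DESeq2 (0.0480) or limma-voom (0.0496). Ddx21, an RNA helicase, was at 32.1 ± 2.84 CPM (SD, n = 7) and 31.0 ± 1.45 CPM (SD, n = 8).

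**Figure D2:**
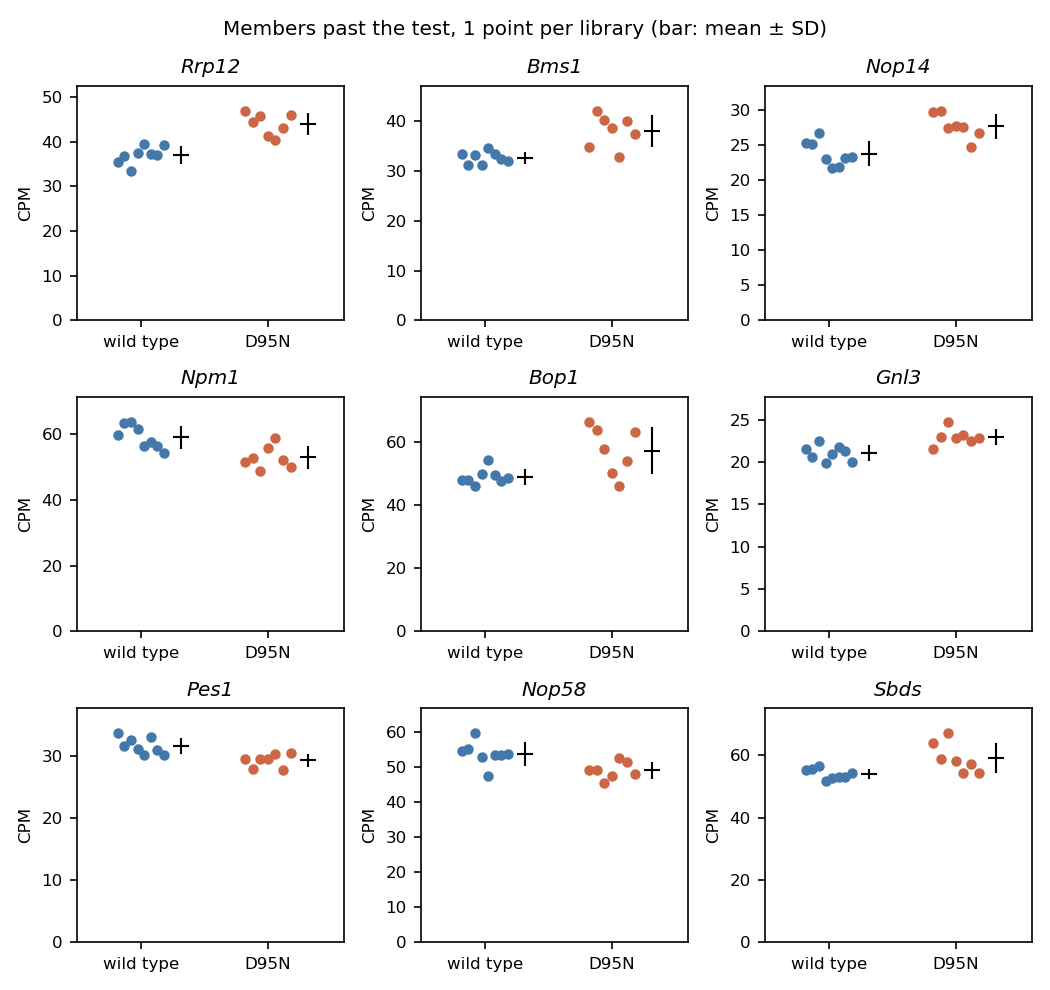
Level in CPM (axes from 0) of each of the 9 called factors in every library, with WT and D95N libraries as points and each group's mean and SD. Only for Rrp12 do the D95N points (40.4 to 46.8 CPM) all lie above the WT points (33.4 to 39.4 CPM).

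The largest fold change of the 42 was that of a small-subunit factor, Rrp12, and 3 of the 13 factors of this role were higher (23.1%, beside 15.2% of all tested genes) and none lower (beside 11.6%). Rrp12, a HEAT-repeat protein that travels with pre-40S particles and takes part in their export (chromosome 19, 41862851 to 41896173, minus strand), was at 44.3, 45.8, 46.8, 41.2, 40.4, 42.95 and 46.1 CPM in D95N 21, 28, 4, 41, 42, 44 and 50. In WT 11, 16, 19, 24, 30, 32, 43 and 8 it was at 36.8, 33.4, 37.6, 39.4, 37.3, 37.0, 39.3 and 35.5 CPM. The groups did not overlap, the 1 factor of 42 of which this was true; 1.81% of all tested genes had every D95N library above every WT library and 1.47% had every one below. D95N 42 and 41 were the lowest of the mutant libraries here too. The log2 fold change was 0.25 ± 0.04 (SE; edgeR quasi-likelihood, adjusted p = 0.000958), a ratio of 1.19.

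Bms1, the GTPase of the small-subunit processome (chromosome 6, 118383381 to 118419474, minus strand), had 32.7, 38.6 and 42 CPM in D95N and 31.1, 32.8 and 34.6 CPM in WT. All D95N libraries but D95N 42, at 32.7 CPM, lay above every control. The log2 fold change was 0.22 ± 0.05 (SE; edgeR quasi-likelihood, adjusted p = 0.00428). Nop14, which scaffolds the 18S part of the same processome (chromosome 5, 34638536 to 34660148, minus strand), had 24.7, 27.5 and 29.8 CPM in D95N and 21.7, 23.2 and 26.6 CPM in WT. D95N 44 and D95N 50 fell within the WT range and the other 5 above it, and its log2 difference was 0.22 ± 0.05 (SE; edgeR quasi-likelihood, adjusted p = 0.00605). Rrp12, Bms1 and Nop14 each kept their calls in 26 of 27 alternative settings, all 15 that leave out a library included, and lost them with the blood-cell and meningeal scores. There the log2 fold change of Rrp12 was 0.20 (adjusted p = 0.394), that of Bms1 0.06 (adjusted p = 0.825) and that of Nop14 0.13 (adjusted p = 0.603). None of the 50-base windows of these 3 transcripts occurs in another gene.

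The other 10 small-subunit factors did not pass. The processome proteins Wdr43, Wdr75 and Heatr1, which bind the precursor early, had log2 fold changes of 0.00 ± 0.05, -0.00 ± 0.05 and 0.08 ± 0.05 (SE), and those of Wdr3 and the U3 snoRNP protein Rrp9 were -0.05 ± 0.04 and -0.04 ± 0.06 (SE). Heatr1 stood out for 1 library, D95N 50, at 28.04 CPM against 22.8 to 24.4 CPM in the other D95N libraries. Factors of late cytoplasmic maturation did not move together: Ltv1 was at 13.5 ± 1.16 against 14.7 ± 0.696 CPM (SD; edgeR adjusted p = 0.0929), Tsr1 at 38.4 ± 1.29 against 37.2 ± 0.948 CPM, and Nob1, the nuclease that makes the 3' end of 18S rRNA, at 23.6 ± 1.86 against 23.4 ± 1.21 CPM. Ltv1 passed only without D95N 4 (edgeR adjusted p = 0.0356) and under total-count scaling (0.0365). Nat10, the RNA acetyltransferase, and the helicase Ddx10 had log2 fold changes of -0.01 ± 0.04 and 0.05 ± 0.04 (SE). Exons of Tsr1 and Wdr3 overlap counted genes on the opposite strand (Srr and Spag17), and the strand setting of the counting is not given in the sources used here.

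Large-subunit factors split within a known complex. Bop1, Pes1 and Wdr12 form the PeBoW complex, which is needed to process the precursor of 28S and 5.8S rRNA. Bop1 (chromosome 15, 76452989 to 76477277, minus strand) was higher, Pes1 (chromosome 11, 3963975 to 3980004, plus strand) lower, and Wdr12 was at 36.9 ± 2.83 CPM (SD, n = 7) against 35.2 ± 1.49 CPM (SD, n = 8; edgeR adjusted p = 0.278). Wdr12 had a log2 fold change of 0.07 ± 0.05 (SE) and passed, at 0.12, only after the GC and length correction (adjusted p = 0.0149) and without the 2 shallowest libraries (adjusted p = 0.0375), settings under which Bop1 lost its call.

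Bop1 had 46.1, 57.8 and 66.4 CPM in D95N and 46.2, 48.4 and 54.4 CPM in WT. D95N 4, 21, 28 and 50 were above all controls, D95N 41 and 44 were within their range, and D95N 42 was the lowest of all 15 libraries. The log2 fold change was 0.23 ± 0.07 (SE; edgeR quasi-likelihood, adjusted p = 0.0207), lost without the 2 shallowest libraries (0.0757), with the GC and length correction (0.0697) and with the blood-cell and meningeal scores, where it was 0.04 ± 0.12 (SE; adjusted p = 0.931). Pes1 had 27.8, 29.5 and 30.6 CPM in D95N and 30.2, 31.3 and 33.7 CPM in WT, with all D95N libraries but 42 and 50 below every control. Its log2 fold change was -0.11 ± 0.04 (SE; edgeR quasi-likelihood, adjusted p = 0.0329), lost without D95N 21 or 44 or WT 8, 11, 16 or 30 (0.0510 to 0.0797). Pes1 also lost its call with the oligodendrocyte, choroid plexus and striatal scores (edgeR adjusted p = 0.0714). Of the 50-base windows of Pes1, 19.7% also occur in other genes, and for Bop1 none do.

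The log2 ratio of Bop1 to Pes1 within a library was 0.96 ± 0.21 in D95N and 0.63 ± 0.11 in WT (SD), a difference of 0.33, the largest of 9 ratios between partners of a complex. In 5 of 7 D95N libraries it was above every WT library, and the groups still overlapped through D95N 41 and 42. Wdr12 to Pes1 differed by 0.18 and Bop1 to Wdr12 by 0.15. These ratios were chosen with the fold changes known and are given with no test.

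**Figure D3:**
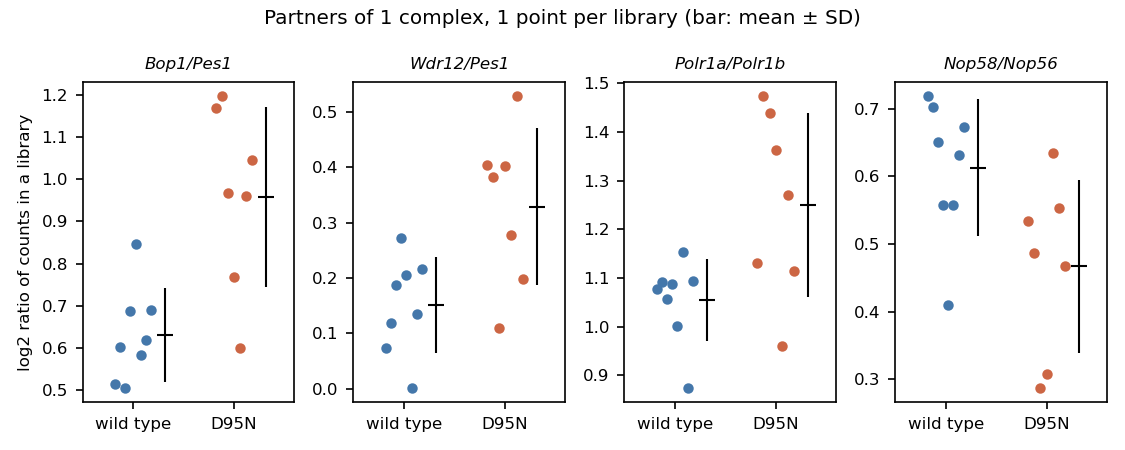
Log2 ratio of the counts of 2 partners of a complex in every library, for 4 of the 9 pairs, D95N and WT as points with each group's mean and SD. Bop1 over Pes1 runs from 0.60 to 1.197 in D95N and from 0.51 to 0.85 in WT, and the groups overlap in each of the 4 pairs.

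Of the other 10 large-subunit factors, Sbds was called. Sbds, which acts with Efl1 to release the anti-association factor Eif6 from new 60S subunits (chromosome 5, 130245731 to 130255530, minus strand), had 54.2, 58.2 and 67.1 CPM in D95N and 51.9, 53.7 and 56.6 CPM in WT, with D95N 42 and 50 within the WT range. Its log2 fold change was 0.13 ± 0.04 (SE; edgeR quasi-likelihood, adjusted p = 0.0407), the largest adjusted p of the 9 calls: it was lost without any 1 of D95N 4, 21 or 28 or WT 8, 11, 19, 24, 30, 32 or 43 (0.0509 to 0.0835), and its direction turned with the blood-cell and meningeal scores (-0.01 ± 0.07, adjusted p = 0.972). Sbds also lost its call with the oligodendrocyte, choroid plexus and striatal scores (edgeR adjusted p = 0.0525) and with thinned counts (0.0692). Eif6, chosen after its values were seen, was at 43.5 ± 4.61 against 38.1 ± 1.15 CPM (SD; edgeR adjusted p = 0.0168), and Efl1 at 17.1 ± 1.06 against 16.6 ± 0.647 CPM (adjusted p = 0.457).

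Rrp1, a nucleolar protein of early 60S assembly, was at 287, 324 and 332 CPM in D95N and 281, 294 and 301 CPM in WT. Its D95N libraries formed a high set of 5 above all controls, while D95N 41 (287 CPM) and D95N 42 (288 CPM) sat within the WT range. The log2 fold change was 0.09 ± 0.04 (SE; edgeR quasi-likelihood, adjusted p = 0.0696). Rrp1 passed only without D95N 41 (0.0255), without D95N 42 (0.0202), with DESeq2 (0.0456) and with the oligodendrocyte, choroid plexus and striatal scores (0.0323). Rrs1, which helps to bring the 5S particle into the 60S precursor, showed a similar split, with 5 D95N libraries above and the other 2 below all controls (0.14 ± 0.07, SE; edgeR adjusted p = 0.126). Rrs1 passed only without D95N 41 (0.0346) or without D95N 44 (0.0481). The giant ATPase Mdn1, which strips factors from the pre-60S particle, had almost equal means, 45.2 ± 6.68 CPM in D95N (SD, n = 7) and 45.1 ± 2.85 CPM in WT (SD, n = 8), but a D95N range of 36.6 to 55.5 CPM. The ATPase Nvl, the 28S methyltransferase Nop2 and the assembly factors Nop16, Ebna1bp2, Brix1 and Nip7 had log2 fold changes between -0.06 and 0.05, none called.

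Per length, Rrp1 was the most abundant of the 42, at 87.9 RPKM (CPM per kilobase of exon) in WT and 93.8 RPKM in D95N. In WT Ncl followed, at 28.5 RPKM (26.6 RPKM in D95N), then Sbds at 26.6 RPKM, which at 29.1 RPKM was above Ncl in D95N. Nhp2 came next, at 24.9 and 25.04 RPKM. In WT the most abundant member of each other role was Ubtf (18.1 and 20.3 RPKM) for polymerase I, Nop56 (8.57 and 8.65 RPKM) for box C/D and Tsr1 (9.70 and 10.01 RPKM) for the small subunit, where Rrp12 and Nop14 (10.1 RPKM each) were just above Tsr1 in D95N. In WT, 40 of the 42 lay between 2 and 30 RPKM with a median of 7.51 RPKM over all 42, Rrp1 lay above, and Fbl, at 0.218 RPKM, lay below. The 9 called factors spanned this range from Gnl3 (3.45 RPKM) to Sbds. The length used is the union of all annotated exons, which exceeds the longest coding transcript by unequal amounts. It was 6101 against 1947 bases for Gnl3, 3486 against 1658 for Nob1 and 3837 against 3389 for Tsr1, but 4340 in both for Rrp12. The order of the factors therefore depends on this choice of length.

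**Figure D4:**
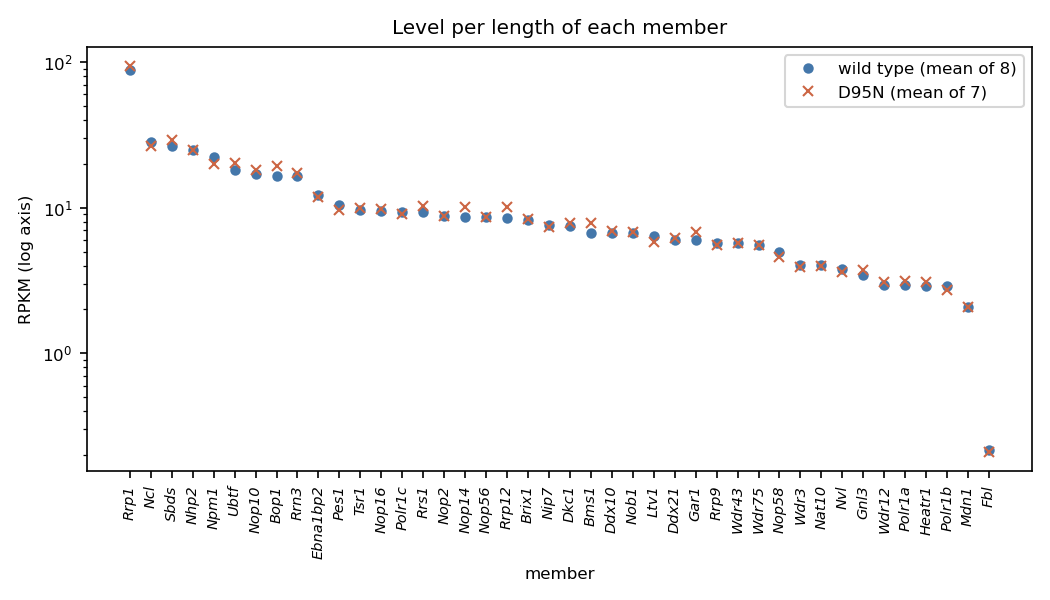
Level per length (RPKM, log axis) of the 42 factors in WT and D95N, ordered by level, with points at group means. Rrp1 is highest at 87.9 RPKM in WT and Fbl lowest at 0.218 RPKM, and the 2 groups lie close together at every factor.

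The mutant libraries differed more among themselves than the controls did. The SD of log2 CPM was larger in D95N for 36 of 42 factors, with a median of 0.107 in D95N and 0.0658 in WT. The same held for 84.3% of the 13374 tested genes in the factors' range of mean CPM (median 0.143 and 0.0845), so the wider spread was shared with other genes. The median log2 deviation of the 42 factors from their WT means ran from -0.02 to 0.08 in D95N libraries, highest in D95N 28 and D95N 50, the shallowest libraries, and from -0.02 to 0.03 in WT libraries. The part of depth in this order was not tested.

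**Figure D5:**
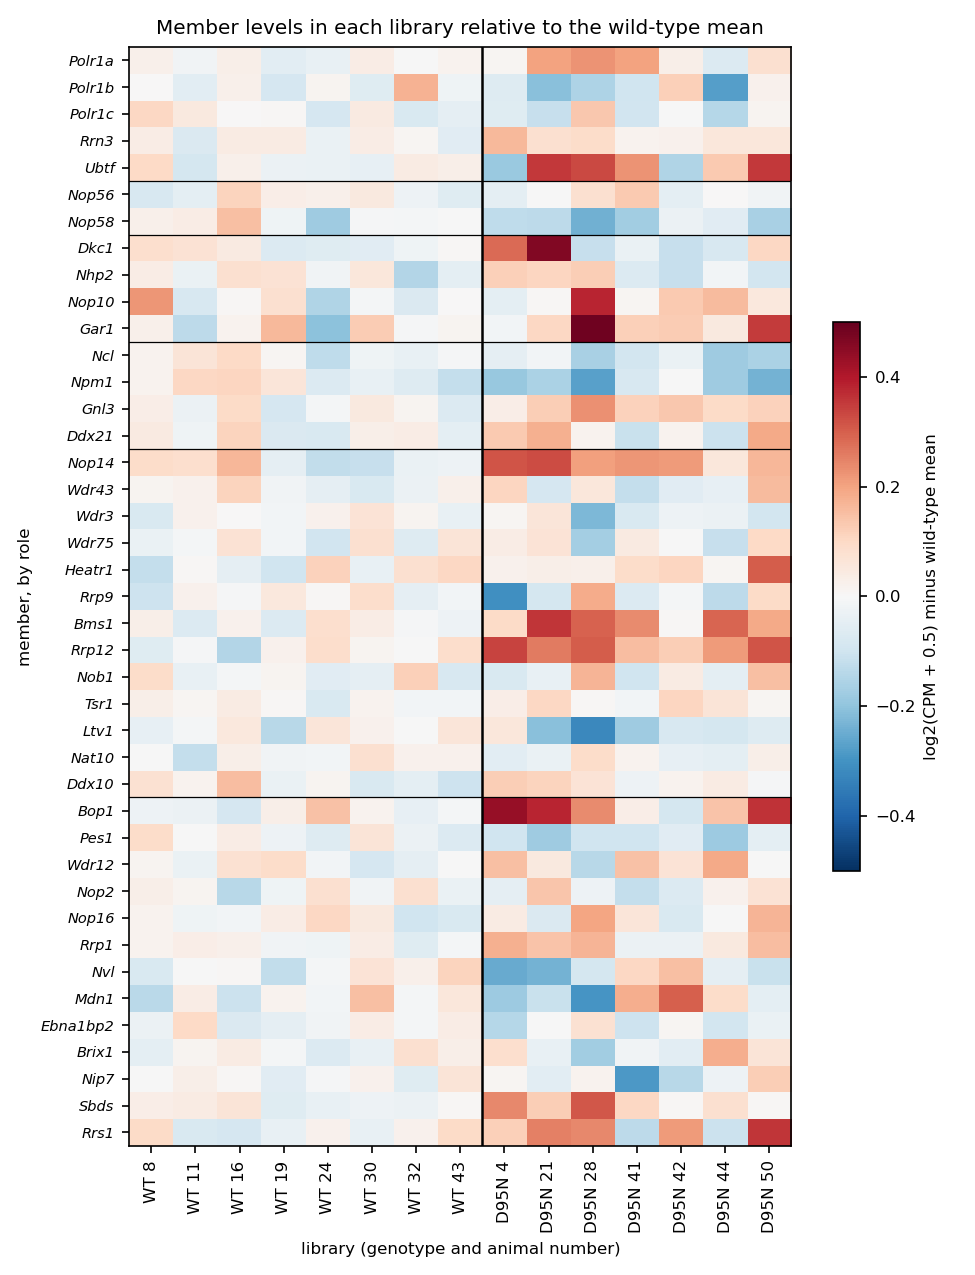
Log2(CPM + 0.5) minus the WT mean for 41 factors (Fbl is left out for its low counts) in rows by role and the 15 libraries in columns, with colour for the deviation. Rrp12, Bms1 and Bop1 are raised in most D95N columns, while D95N 42 is closer to the WT columns at these genes.

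Promoters were read from RefSeq (GRCm38.p6) for 36 of the 42 symbols, as 43 windows of 280 bases from 250 bases before to 30 bases after the annotated start. A window with CCGGAAG, a motif of ETS factors, was found for 15 of 43 (34.9%), beside 8.45% of 32851 windows of all genes. The GC box GGGCGG was in 65.1% beside 34.7%, the E-box CACGTG bound by Myc-type factors in 11.6% beside 6.79%, CCAAT in 30.2% beside 36.1% and TATAAA in 4.65% beside 13.1%, each on either strand. The median GC content was 59.3% in the windows of the factors and 52.5% in all windows. The windows of all genes were not limited to genes tested here, whereas all 42 factors were tested. Among the called factors with a window, Bms1 held the ETS motif and Pes1 the E-box, while Nop14, Nop58 and Gnl3 held neither of these letters. Only these exact letters were searched: the Nop58 window holds CCGGAAA, which differs from the ETS letters in the last base and was not marked. A match describes the letters of the window and does not show a bound factor.

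The windows of 4 called factors are shown so that those that were higher (Bms1, Nop14) can be set beside those that were lower (Pes1, Nop58). They are written 5' to 3' on the gene's strand, ending 30 bases past the first GENCODE start in Bms1 and Nop58, with the ETS motif (on the opposite strand in Bms1) or the E-box in capitals.
Bms1, chr6:118419445-118419667, minus strand: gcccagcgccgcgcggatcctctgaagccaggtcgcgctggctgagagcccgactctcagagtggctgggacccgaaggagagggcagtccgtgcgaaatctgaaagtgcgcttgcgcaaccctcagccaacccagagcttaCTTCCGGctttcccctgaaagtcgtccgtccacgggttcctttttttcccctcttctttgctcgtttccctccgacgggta
Nop14, chr5:34660119-34660398, minus strand: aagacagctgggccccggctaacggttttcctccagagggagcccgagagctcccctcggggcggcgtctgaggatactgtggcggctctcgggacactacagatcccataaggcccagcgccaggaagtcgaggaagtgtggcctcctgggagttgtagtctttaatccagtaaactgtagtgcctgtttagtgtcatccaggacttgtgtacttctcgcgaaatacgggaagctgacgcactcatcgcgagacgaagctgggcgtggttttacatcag
Pes1, chr11:3963725-3964004, plus strand: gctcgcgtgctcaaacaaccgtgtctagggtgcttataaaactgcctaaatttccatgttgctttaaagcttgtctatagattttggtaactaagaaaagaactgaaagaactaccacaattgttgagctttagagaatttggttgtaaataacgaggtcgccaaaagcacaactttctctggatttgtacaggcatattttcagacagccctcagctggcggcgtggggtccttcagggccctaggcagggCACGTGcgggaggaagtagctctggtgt
Nop58, chr1:59684756-59685000, plus strand: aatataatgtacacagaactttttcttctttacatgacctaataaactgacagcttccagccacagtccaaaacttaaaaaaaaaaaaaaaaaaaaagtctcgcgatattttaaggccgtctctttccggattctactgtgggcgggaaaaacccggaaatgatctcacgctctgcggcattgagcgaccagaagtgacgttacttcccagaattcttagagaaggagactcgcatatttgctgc

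A wider list of 119 other ribosome biogenesis genes gave 18 higher (15.1%) and 10 lower (8.40%) calls, beside 15.2% and 11.6% of all tested genes, with a median log2 fold change of 0.04. The 4 with the smallest p among those higher were Ddx24 (241 ± 11.2 against 213 ± 7.82 CPM, SD; all 7 D95N libraries above all WT libraries), Ddx47, Nol6 and Noc4l, with edgeR adjusted p of 0.00127, 0.00404, 0.00426 and 0.00721. Noc4l binds Nop14 in the small-subunit processome, and was at 19.4 ± 1.74 against 16.5 ± 0.946 CPM (SD). The 4 of smallest p among those lower were Twistnb, Xrn2, Utp14a and Tsr2, with edgeR adjusted p of 0.00334, 0.00645, 0.00719 and 0.00822. Twistnb, a subunit of RNA polymerase I, was at 9.40 ± 0.738 against 11.4 ± 0.747 CPM (SD), with all 7 D95N libraries below all WT libraries, and Xrn2, the 5' to 3' exonuclease that trims precursor ends, likewise (47.8 ± 2.02 against 52.6 ± 1.64 CPM, SD). Utp14a was also below in all 7 (log2 fold change -0.17 ± 0.04, SE), while its retrogene Utp14b, a similar sequence, was higher (0.25 ± 0.08, SE; edgeR adjusted p = 0.0355). Whether reads were split between them was not tested. Rcl1, the partner of Bms1 and chosen after its values were seen, was at 14.1 ± 1.98 against 16.8 ± 0.957 CPM (SD; edgeR adjusted p = 0.0176), opposite in direction to Bms1. Without D95N 21 the counts over this list were 11 higher and 7 lower, and without the 2 shallowest libraries 8 and 7.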

How the data were processed

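RNA from 7 D95N and 8 WT mice was sequenced, 1 library a mouse. The authors deposited raw counts of reads for each Ensembl identifier, made with STAR and featureCounts on GRCm38, per the submitters' processing notes. Which versions, annotation and strand setting they used, and whether reads with several matches were counted, is not given in the sources used here. Of 22524 identifiers, 22291 matched GENCODE M21, which gave symbols and positions, and 233 did not. Totals ran from 23349381 to 34587082.

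All genes were fitted together with edgeR 4.0.16 in R 4.3.3 (glmQLFit and glmQLFTest, TMM factors, filterByExpr, genotype as the 1 term), with Benjamini-Hochberg adjustment over 14989 genes at 0.05. The SE was taken as |log2 fold change| / √F. CPM of single genes use TMM factors, and RPKM use the exon union. Summed marker CPM use library totals alone, without TMM factors. These factors ran from 0.968 to 1.016 in D95N and from 1.006 to 1.019 in WT. Log2 values for SDs, scores and plots had 0.5 CPM added. The fit was checked on simulated data with the same spread set for both genotypes at each gene, so that check does not cover the wider spread in D95N. Alternatives used limma 3.58.1, DESeq2 1.42.0, other scalings and filters, thinned counts, covariates and left-out libraries; leaving out the 2 shallowest was chosen after seeing the data. Copies were sought as exact 50-base windows in Python 3.11.15. Library totals were compared by an exact permutation test.

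The factors, lists and tests were chosen with earlier results of these data known. Every called factor is named, with the range and median over libraries for the 12 of smallest adjusted p, and the most abundant member of each role in WT is named with its level. Of the other biogenesis genes, up to 4 called in each direction are named by p. Of 129 symbols in that list 119 matched. Oligodendrocyte, microglial and choroid plexus markers gave no calls, and the endothelial list (4 genes) gave 1 lower and the neuronal list 1 higher and 1 lower.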

Additional observations from a re-analysis of the deposited data

Results flagged for a closer look

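A single library lay far from the rest of its group at 3 factors. Bop1 was at 54.4 CPM in WT 24, against 46.2 to 50.1 CPM in the other WT libraries. Heatr1 was at 28.04 CPM in D95N 50, against 22.8 to 24.4 CPM in the other D95N libraries. Polr1b was at 19.02 CPM in WT 32, against 15.8 to 17.1 CPM in the other WT libraries. Each gap exceeded the critical value of Dixon's test. Chance flags about 1 in 20 such groups, and 84 were examined.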

How the results depend on the processing

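The controls were littermates, but the labels name no litter, batch, lane or date. None of these could enter the fit, and no pairing or blocking by litter was possible. Of 1133 values of the 42 factors under alternatives, 243 were of called factors. Of these 243, 53 lost the call, and of the values of uncalled factors 20 gained one. The cause was not tested beyond each setting's own construction. The factors called lower numbered 5 under total-count scaling, 1 after correction for GC content and length, 1 with oligodendrocyte, choroid plexus and striatum scores and 1 without the 2 shallowest libraries, in place of 3. The other biogenesis genes called higher numbered 11 with upper-quartile factors, 7 under total-count scaling and 8 without the 2 shallowest libraries, in place of 18. With blood-cell and meningeal scores, 0 factors were higher and 0 lower, 0 other biogenesis genes were higher and 0 lower, 6 of all genes were called, and Sbds turned to -0.0106. These scores differed between the genotypes, and that fit separated them from genotype only in part. Leaving out each library in turn gave 4 to 8 factors higher, 1 to 4 lower (1 without D95N 21 or WT 8, 11 or 16), 11 to 24 other biogenesis genes higher, 7 to 12 lower and 3263 to 4976 of all genes. In those 15 fits Rrp12, Bms1, Nop14, Bop1 and Npm1 kept their calls in all 15, Gnl3 in 12, Pes1 in 9, Nop58 in 7 and Sbds in 5. Low counts limit Fbl, at 15 to 41 reads a library.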
